A study of Arabidopsis thaliana with 18 samples.

Results

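The GDSL lipase family genes AT4G01130, AT1G29660 and AT1G54020 were followed on 18 Affymetrix ATH1 arrays of Arabidopsis thaliana accession Est. These 3 genes are among the 72 members of a GDSL family list that carry a name on the array, and among 13286 named loci in all. Each is read by 1 probe set. They were chosen from measured values: AT4G01130 and AT1G29660 stood lowest among named genes on SA titles 46 to 48 when these arrays were set against every group of silwet arrays, and AT1G54020 was listed for its signal on titles 40, 43 and 52. Of all tested probe sets, 0.692% were lower there than in every silwet group (118 of 17059), and the first 3 named genes by the smallest of these differences were AT4G01130 (-1.62 log2 units), AT1G29660 (-1.58) and, just outside the choice, AT3G20820 (-1.48). What those arrays show for the chosen genes is therefore given as a description, with no test.

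GDSL lipases are esterases named for a Gly-Asp-Ser-Leu motif that holds the catalytic serine. Plants carry them as a large family of mostly secreted proteins, and known Arabidopsis members link cutin in the cuticle, act in defence against fungi and bacteria, coat pollen or associate with myrosinase, the enzyme that breaks down glucosinolates. AT4G01130, AT1G29660 and AT1G54020 have no name beyond their locus in the TAIR10.1 gene table. In that table AT1G29660 lies next to AT1G29670, a family member, and AT1G54020 lies between AT1G54010 (GLL23, a GDSL lipase-like protein) and MVP1, both also of the family, followed by ESP, the epithiospecifier protein of glucosinolate breakdown. GLL23, MVP1 and ESP are not analysed by name here.

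One treatment was 0.3 mM SA in 0.02% silwet, and the other 0.02% silwet alone. Silwet is a surfactant used to wet plant surfaces, and SA is read here as salicylic acid, a defence hormone, although the labels give only the abbreviation. No transgene or mutant is named. Each treatment has 9 arrays, numbered in the titles 46 to 54 for SA and 37 to 45 for silwet, and each successive 3 titles carry the replicate numbers 1, 2 and 3. Such a group of 3 is called a run, and runs were paired in title order: SA 46 to 48 with silwet 37 to 39, SA 49 to 51 with silwet 40 to 42, and SA 52 to 54 with silwet 43 to 45. The labels do not say what separates the runs, nor whether arrays came from separate plants, so that p-values measure the spread between these arrays, which may be technical. The sources used here give no tissue, plant age or harvest time.

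Array medians ran from 27.4 to 35.7 signal units. Tissue markers were summed over the named genes of each list. The 3 leaf photosynthesis genes (of 15 listed) summed to 4592 to 7905 units in SA arrays and 5921 to 8253 in silwet arrays. The 4 root genes (of 10) summed to 96.9 to 299 units in SA and 78.5 to 244 in silwet arrays. Most of this sum was AT5G44020 (49.7 to 268 units), with EXPA7, EXPA18 and AT2G25980 at most 13.1, 16.3 and 19.8 units. The 2 flower and pollen genes (of 9) summed to 1.38 to 8.07 in SA and 0.847 to 6.41 in silwet arrays, and the 1 seed gene (of 8) read 3.81 to 11.3 and 0.733 to 15.2. The salicylic acid glucosyltransferase gene UGT76B1 was 2.73 log2 units higher in SA titles 46 to 48 than in silwet titles 37 to 39 (standard error 0.42, limma adjusted p = 0.00255), in a comparison where 3.03% of all tested probe sets were called. In the later pairs its differences were 0.65 and -0.31. The mean log2 ratio of 3′ to 5′ control signal was 0.94 to 1.18 in SA titles 46 to 48 and 0.97 to 1.24 in silwet titles 37 to 39. It reached higher values in the later runs, with 1.09 to 1.41 in SA titles 49 to 51 and 1.02 to 1.49 in silwet titles 40 to 42, and with 1.16 to 1.78 in SA titles 52 to 54 and 1.21 to 1.54 in silwet titles 43 to 45. The leaf genes differed between groups too. In SA titles 46 to 48 all 3 lay below silwet titles 37 to 39, with a median difference of -0.24 and 1 called lower by limma. Over all tested probe sets 58.7% lay below 0 in this pair and 1.45% were called lower. Against the later SA titles the median difference of the leaf genes was -0.52, with 2 of 3 called lower, where 15.9% of all tested probe sets were called lower.

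AT4G01130 was lowest on the arrays of SA titles 46 to 48. Its signal there was 33.8, 24.2 and 17.9 units, against 98.8, 152 and 85.3 in silwet titles 37 to 39. These groups did not overlap, and every array of the later pairs read at least 113 units. In the second pair it had 209.6, 200.5 and 196 units in SA titles 49 to 51, against 239.9, 146 and 113 in silwet titles 40 to 42. In the last pair it had 198, 307 and 215 units in SA titles 52 to 54, against 131, 177 and 143 in silwet titles 43 to 45. The SA arrays of the second pair lay inside the silwet range, and those of the last pair all lay above it. The share of all tested probe sets that separate in this way is not given here for any pair. In total RNA of whole samples, fewer cells of a type and less RNA per cell cannot be told apart.

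On the scale log2(signal + 16), AT4G01130 had a level of 5.35 ± 0.28 in SA titles 46 to 48 and 6.97 ± 0.38 in silwet titles 37 to 39 (SD, n = 3 each). The difference was -1.62 (standard error 0.25, 3.07-fold). This is the difference it was chosen for. Against silwet titles 40 to 42 and 43 to 45 the same SA arrays gave differences of -2.10 and -2.02, in comparisons where 8.92% and 8.86% of all tested probe sets were called lower. In the later pairs, of which the choice used the silwet but not the SA arrays, the differences were above 0: 0.32 in the second pair (95% interval -0.20 to 0.83, limma adjusted p = 0.890) and 0.61 in the last (0.09 to 1.13, unadjusted p = 0.0233, limma adjusted p = 0.71). Neither passed over 17059 tested probe sets, of which limma called 0 in either later pair (0%; unadjusted p under 0.05 in 1115 and 1164). The 2 later differences did not differ detectably from each other (0.29, standard error 0.35, limma adjusted p = 0.833). As the choice used the silwet arrays of both later pairs, the intervals and p-values for these pairs are not independent of it.

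**Figure D1:**
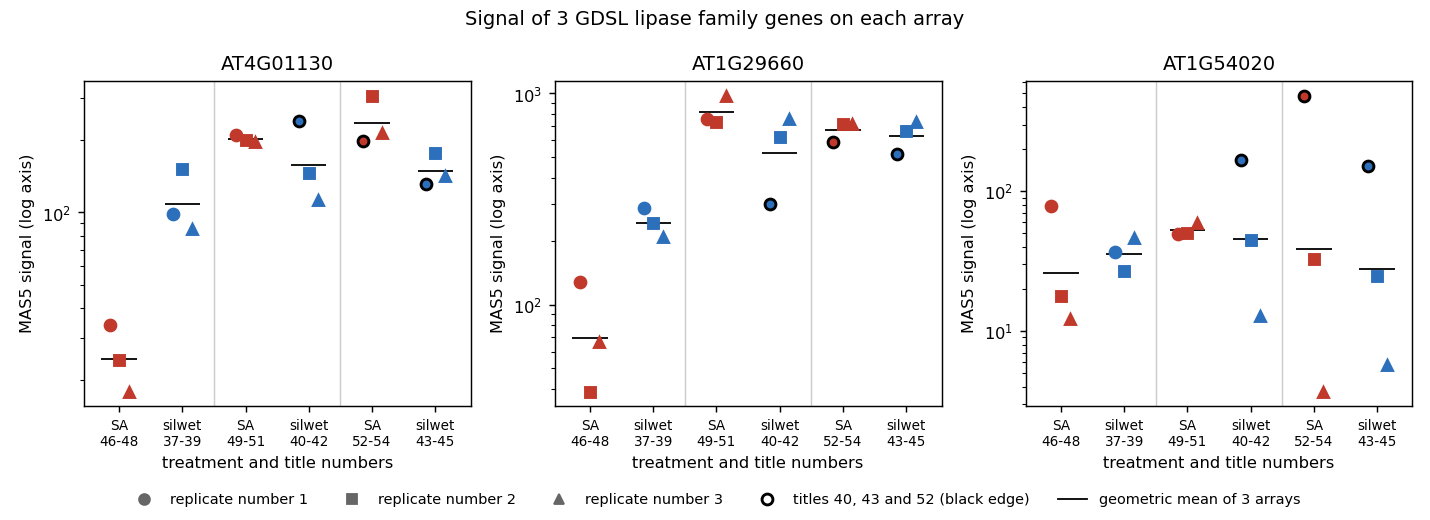
Signal of AT4G01130, AT1G29660 and AT1G54020 on each of 18 arrays (log axis, MAS5 signal units), with SA left of silwet in each run pair, 1 point per array, marker shape for the replicate number, a black edge for titles 40, 43 and 52, and a bar at the geometric mean of 3 arrays. AT4G01130 and AT1G29660 are lowest in SA titles 46 to 48, and AT1G54020 is highest on titles 52, 40 and 43.

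AT1G29660 was also lowest in SA titles 46 to 48, and it differed between silwet runs as well. Its signal was 129, 38.8 and 66.6 units in SA titles 46 to 48, against 287.6, 244 and 208 in silwet titles 37 to 39. SA titles 49 to 51 read 757, 734 and 974.97 units, against 301, 621 and 760.1 in silwet titles 40 to 42. In the last pair it had 590.3, 719 and 720.4 units in SA titles 52 to 54, against 517, 662 and 734 in silwet titles 43 to 45. The pair it was chosen on did not overlap, and both later pairs did. For this gene too, no share over all tested probe sets is given beside the lack of overlap.

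The level of AT1G29660 was 6.44 ± 0.70 in SA titles 46 to 48 and 8.03 ± 0.22 in silwet titles 37 to 39 (SD, n = 3 each). The difference was -1.58 (standard error 0.31), and against the later silwet runs it was -2.63 and -2.90. In the second pair the difference was 0.62 (95% interval -0.03 to 1.28, limma adjusted p = 0.773) and in the last 0.09 (-0.57 to 0.75, adjusted p = 0.960). The last difference minus the second was -0.53 (standard error 0.44, limma adjusted p = 0.763). The choice of this gene also used the silwet but not the SA arrays of both later pairs. Intervals and p-values for these pairs are therefore not independent of the choice.

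Among silwet arrays alone, AT1G29660 was lower in titles 37 to 39 than in the later silwet titles. The difference was -1.18 (standard error 0.27, 2.27-fold), given as a description because the choice of the gene used all silwet arrays. The lowest later array, silwet title 40 with 301 units, lay just above the highest of titles 37 to 39, 287.6 units. How many of all tested probe sets separate in this way is not given here. Without replicate 2 or replicate 3 the difference was -1.10 or -0.89. In the same comparison AT4G01130 had -0.44 (standard error 0.21).

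**Figure D2:**
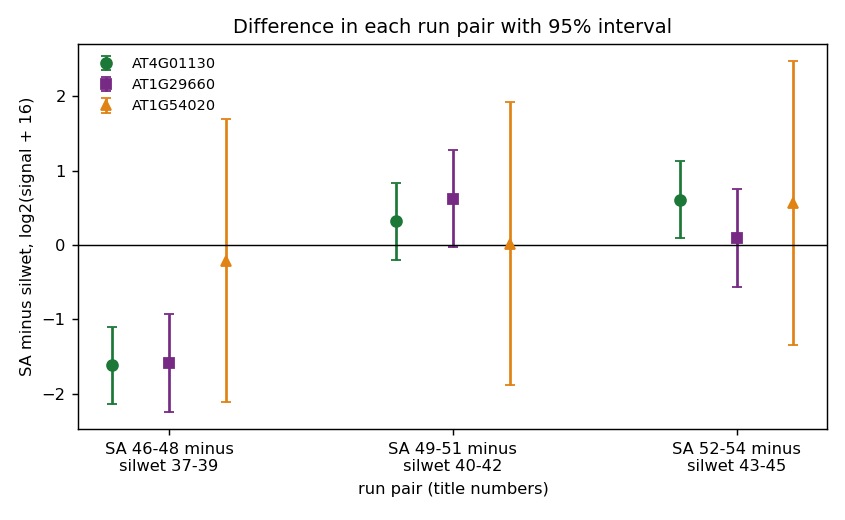
SA minus silwet difference of each gene in the 3 run pairs, in units of log2(signal + 16), as points with 95% intervals (3 against 3 arrays, spread estimated over all 6 runs). AT4G01130 and AT1G29660 lie at -1.62 and -1.58 in the pair they were chosen on, and their points lie above 0 in both later pairs. Their later intervals span 0 except that of AT4G01130 in the last pair (0.09 to 1.13, limma adjusted p = 0.71). The intervals of AT1G54020 span 0 in all 3.

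Within SA, both genes stood far below their own later level. SA titles 46 to 48 minus the mean of the later SA runs gave -2.52 for AT4G01130 (standard error 0.21, 5.74-fold) and -3.12 for AT1G29660 (standard error 0.27, 8.72-fold), which again rests on the arrays used for the choice. In this comparison 30.5% of all tested probe sets were called, and 15.9% of all tested probe sets were called lower. Between SA titles 52 to 54 and 49 to 51, which the choice did not use, the differences were 0.21 for AT4G01130 and -0.27 for AT1G29660 (standard errors 0.25 and 0.31, limma adjusted p = 0.957 each). There limma called 0 of 17059 probe sets (652 had an unadjusted p under 0.05).

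Ordered by level, AT4G01130 ran from SA titles 52 to 54 (7.98 ± 0.31) through SA 49 to 51 (7.77 ± 0.05), silwet 40 to 42 (7.45 ± 0.50), silwet 43 to 45 (7.37 ± 0.20) and silwet 37 to 39 down to SA 46 to 48. Among the highest 4, neighbours differed by less than the larger of both SDs. Silwet 43 to 45 lay above silwet 37 to 39 by 0.40, against a larger SD of 0.38, and silwet 37 to 39 lay above SA 46 to 48 by more than that spread. For AT1G29660 the order was SA 49 to 51 (9.70 ± 0.22), SA 52 to 54 (9.43 ± 0.16), silwet 43 to 45 (9.34 ± 0.25), silwet 40 to 42 (9.08 ± 0.68), silwet 37 to 39 and SA 46 to 48. Here the middle 3 neighbours from SA 52 to 54 to silwet 40 to 42 lay within that spread. For AT1G54020 no neighbours in the order differed beyond it.

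AT1G54020 differed from the other two in that its range lay between arrays of a run rather than between runs. Its signal was 481 units on SA title 52, against 167 and 151 on silwet titles 40 and 43, the arrays it was listed for. On the remaining 15 arrays it ran from 3.68 to 78.5 units with a median of 32.9, so that the 3 listed arrays did not overlap the rest. The same separation held for 3.79% of all tested probe sets, and for AT1G54020 alone among the 46 tested genes of the family. The mean level was 7.95 ± 0.87 (SD, n = 3) on the 3 listed arrays and 5.49 ± 0.67 (SD, n = 15) on the others. By this difference of 2.46 it stood in place 9 among named genes, after AT4G33550 with 2.57 and before AT2G18050 with 2.06.

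Titles 40, 43 and 52 all carry replicate number 1, and the remaining arrays of that number did not share one pattern for AT1G54020. In SA titles 46, 47 and 48 it had 78.5, 17.9 and 12.3 units, with replicate 1 the highest. In silwet titles 37, 38 and 39 it had 36.6, 26.8 and 46.2 units, and in SA titles 49, 50 and 51 it had 49.3, 50.6 and 59.6, with replicate 3 the highest in both. Lowest in the series were SA title 54 with 3.68 units and silwet title 45 with 5.69, both of replicate number 3. The files hold no detection calls, so whether such low readings exceed background is not known.

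In the second pair AT1G54020 had 49.3 to 59.6 units in SA titles 49 to 51, against 167, 44.5 and 12.7 in silwet titles 40 to 42. In the last pair it had 481, 32.9 and 3.68 units in SA titles 52 to 54, against 151, 24.9 and 5.69 in silwet titles 43 to 45. SA and silwet overlapped in all 3 pairs, and the runs holding titles 40, 43 and 52 each had replicate 1 highest and replicate 3 lowest. Its level was 5.49 ± 0.94 in SA titles 46 to 48 and 5.70 ± 0.27 in silwet titles 37 to 39 (SD, n = 3 each), a difference of -0.21 whose 95% interval ran from -2.11 to 1.69 (limma adjusted p = 0.951). In the second pair its difference was 0.02 (-1.89 to 1.92) and in the last 0.56 (-1.34 to 2.47), both of which include arrays it was listed for. Differences within these intervals were not detectable with 3 arrays a run in this fit, which had no term for the replicate number.

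The other 2 genes did not follow titles 40, 43 and 52. AT4G01130 read 198 units on SA title 52, against 239.9 and 131 on silwet titles 40 and 43, within the range of the others. AT1G29660 read 590.3 on SA title 52, against 301 and 517, and within each of these 3 runs the listed array was its lowest. A limma F-test of the replicate numbers, in a fit that held the 6 runs apart, gave adjusted p = 0.240 for AT4G01130 and 0.731 for AT1G29660, where 9.89% of all tested probe sets passed.

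Over all arrays without regard to runs, AT4G01130 had 7.03 ± 1.28 with SA and 7.26 ± 0.40 with silwet, and AT1G29660 had 8.52 ± 1.61 and 8.81 ± 0.71 (SD, n = 9 each). AT1G54020 had 5.96 ± 1.34 with SA and 5.84 ± 1.04 with silwet. The differences were -0.23, -0.29 and 0.12, with standard errors of 0.40, 0.52 and 0.50. They are given as a description, since they include the arrays the genes were chosen on. With array weights the first 2 turned to 0.26 and 0.25. In this comparison limma called 0 probe sets (233 had an unadjusted p under 0.05).

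Other genes of the family were taken from a list of 111 loci, of which 72 are named on the array and 46 passed the filter on dim probe sets, the 3 chosen genes included. In SA titles 46 to 48 against silwet titles 37 to 39, 4 of the 46 fell and 0 rose, among them AT4G01130 and AT1G29660, where 1.45% of all tested probe sets fell and 1.58% rose. Of the 43 genes that were not chosen, 2 fell (4.65%). The leaf markers, of which 1 of 3 was called lower in this pair, were not tested for their part in it. With the replicate number as a block 8 of the 46 fell. Without replicate 1 the count was also 8, and without replicate 2 or replicate 3 it was 0. Calls over all tested probe sets were 517 in this pair, against 1147 with the block and 809, 3 and 15 without replicate 1, 2 and 3. The median difference of the 46 was -0.21, and 38 lay below 0 (82.6%). Without the chosen genes the median was -0.18 (43 genes). Over all tested probe sets the median was -0.05, with 58.7% below 0. With the chosen genes included, the family median ran from -0.08 at an offset of 64 to -0.40 with a filter at the median. That filter keeps only the brighter probe sets.

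The 2 others that fell were AT3G48460 and AT1G29670, the neighbour of AT1G29660. AT3G48460 had 50.8, 37.0 and 49.3 units in SA titles 46 to 48, against 91.1, 123 and 95.7 in silwet titles 37 to 39 (difference -0.95, standard error 0.16, limma adjusted p = 0.00575). AT1G29670 had 1074, 611 and 577 units in SA titles 46 to 48, against 1274, 1232 and 1373 in silwet titles 37 to 39 (difference -0.82, standard error 0.19, limma adjusted p = 0.0260; 0.0925 when only these 6 arrays were fitted). Neither gene overlapped between the groups, and the share of all tested probe sets without overlap is not given here. Without replicate 2 or replicate 3 neither passed, with differences of -0.73 and -1.04 for AT3G48460 and -0.73 and -0.62 for AT1G29670. In the 2 later pairs their differences were 0.09 and 0.24 for AT3G48460 and 0.23 and 0.26 for AT1G29670, and 0 of the 46 family genes passed in either (unadjusted p under 0.05 in 2 and 3).

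**Figure D3:**
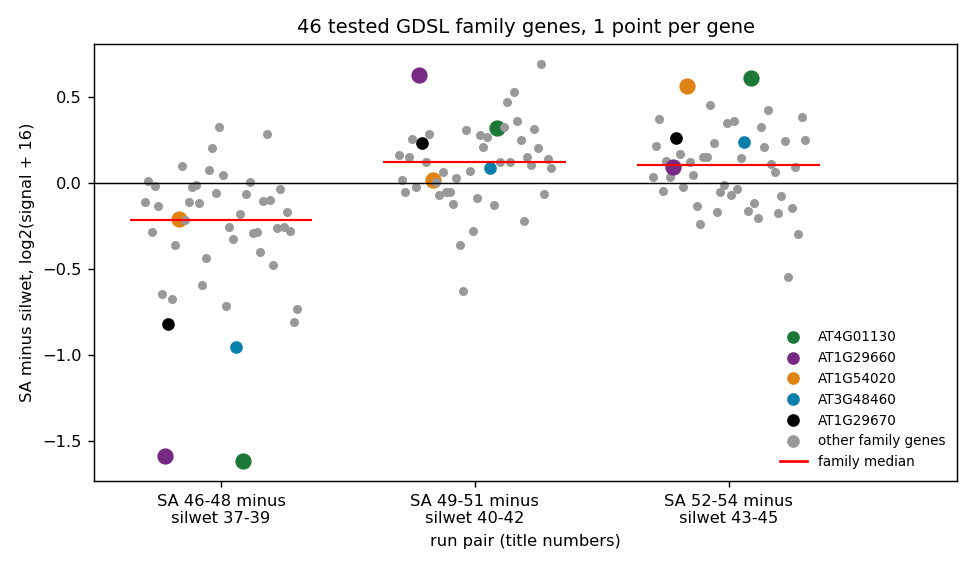
SA minus silwet difference, in units of log2(signal + 16), of 46 tested GDSL family genes in the 3 run pairs, 1 point per gene, with the family median as a red line. In the pair of SA titles 46 to 48 the median is -0.21 with AT4G01130 and AT1G29660 lowest, and in the later pairs it is 0.12 and 0.10.

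A comparison added after the data had been seen asked whether the SA difference of SA titles 46 to 48 differed from the mean of the later pairs. Of the 43 family genes that were not chosen 4 were lower by this interaction test (9.30%), where 4.91% of all tested probe sets passed, 2.37% lower and 2.53% higher. They were AT3G48460 (-1.11, limma adjusted p = 0.00451), AT1G29670 (-1.07, adjusted p = 0.0132), AT5G45950 (-1.07, adjusted p = 0.0357) and AT3G05180 (-1.04, adjusted p = 0.0294). AT5G45950 and AT3G05180 were singled out after their values were seen. AT4G01130 and AT1G29660 had -2.08 and -1.94, given as a description. With these included the count was 6 of 46, against 0 without replicate 2, 0 without replicate 3, 11 with array weights and 6 with the 3′ to 5′ ratio as a covariate. Of the leaf markers 1 of 3 was lower here, and its part was not tested.

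Low readings on SA titles 46 to 48 were common in the family when the later SA arrays were the comparison. Of the 43 genes that were not chosen, 18 were lower there (41.9%) and 1 was higher, against 15.9% lower and 14.6% higher over all tested probe sets. With the chosen genes included the count was 20 of 46 lower, and it stayed between 15 and 25 under the alternatives tried. The leaf marker genes moved the same way there, with 2 of 3 called lower and a median difference of -0.52, and the 3′ to 5′ ratio was 0.94 to 1.18 in SA titles 46 to 48, against 1.09 to 1.41 and 1.16 to 1.78 in the later SA runs. With that ratio as a covariate 16 of the 46 were lower. The part of the leaf markers in the result was not tested. This comparison shares SA titles 46 to 48 with those above. The one that was higher, AT5G03610, had 229, 331.6 and 256 units in SA titles 46 to 48 and 70.7 to 213 units in the later SA titles (difference 1.07, limma adjusted p = 0.00165).

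The silwet runs also differed. In silwet titles 37 to 39 against the later silwet titles, 4 of the 43 family genes that were not chosen were lower (9.30%) and 1 was higher, where 2.9% of all tested probe sets were called, 0.891% lower and 2.01% higher. Those lower were AT5G45670 (-1.29, limma adjusted p = 0.00800), AT1G75900 (-0.94, adjusted p = 0.0243), AT3G16370 (-0.76, adjusted p = 0.0276) and AT4G26790 (-0.65, adjusted p = 0.0153). The one that was higher was again AT5G03610 (0.94, adjusted p = 0.0322). These genes were singled out after their values were seen. Counted with AT1G29660, 5 of 46 were lower, against 0 without replicate 2 or replicate 3 and 2 with the 3′ to 5′ ratio as a covariate, which was 0.97 to 1.24 in silwet titles 37 to 39 and up to 1.54 in the later ones.

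AT4G01130 and AT1G29660 were both chosen for low signal on SA titles 46 to 48, which by itself raises their correlation over all arrays. Over the 18 arrays their levels had a Pearson correlation of 0.87 (Spearman 0.60), and after subtraction of each run's mean the correlation was -0.18. With AT1G54020 the correlations over all arrays were 0.24 for AT4G01130 and 0.10 for AT1G29660. These are descriptions over arrays that share runs and that the choice used.

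The named genes most like each of the 3 were sought among 9457 by Pearson correlation over the 18 arrays. For AT4G01130 the highest were AT5G62140 (0.96), AT2G29310 (0.96), AT1G26100 (0.96), AT4G35335 (0.96) and AT1G74370 (0.95). AT5G62140, like AT4G01130, was lowest in SA titles 46 to 48, with 30.8, 13.4 and 23.6 units, against 71.2, 79.7 and 62.3 in silwet titles 37 to 39. It stood in place 8 of the ranking of named genes from which AT4G01130 was chosen. For AT1G29660 the highest were AT5G15050 (0.98), AT5G62350 (0.96), AT3G06770 (0.96), scpl26, a serine carboxypeptidase-like gene (0.95), and AT3G49720 (0.94). Both chosen genes were picked for low signal on SA titles 46 to 48. That by itself raises their correlation over all arrays with genes low there. Within runs the correlations were lower, from 0.55 to 0.78 for AT4G01130 and from 0.70 to 0.81 for AT1G29660.

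For AT1G54020 the most alike were JAL23, a jacalin-related lectin gene (0.91), AT3G08990 (0.91), AT3G28220 (0.91), AT3G26850 (0.88) and JAL33, also of the jacalin-related lectins (0.88). Here the correlations within runs were as high, from 0.92 to 0.94. AT1G54020 was listed for titles 40, 43 and 52, which by itself raises its correlation with genes high on them, also within runs. Without the 2 arrays farthest from the median level of AT1G54020 the correlations were 0.79 to 0.88 over the remaining arrays. Those 2 were titles 52 and 40, and listed title 43 stayed in. JAL23 read 391.6 units on SA title 52, against 149 and 259 on silwet titles 40 and 43. It also read 168 on silwet title 39, where AT1G54020 had 46.2. AT3G28220 read 1438 units on SA title 52, against 825 and 821, and at most 412 on any other array.

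**Figure D4:**
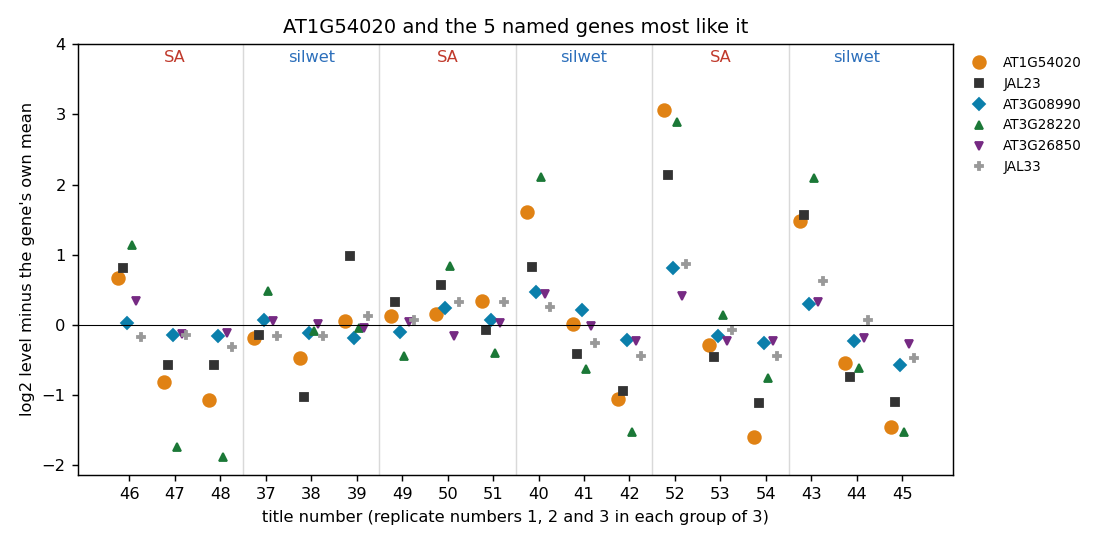
Level of AT1G54020 and of the 5 named genes most like it on each array, as log2(signal + 16) minus the gene's own mean, with arrays in run pairs (SA before silwet) and 1 marker type per gene. All 6 genes lie above their own mean on titles 52, 40 and 43, where AT1G54020 had 481, 167 and 151 units.

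Of 24 listed genes of the myrosinase system, 5 are named on the array and were tested, with AT1G54020 among them. By limma 0 passed in each run pair, and 0 had an unadjusted p under 0.05. The 2 with the smallest p were PYK10, a beta-glucosidase of endoplasmic reticulum bodies, and JAL34, a lectin, with differences of 0.77 and 0.74 in the second pair (limma adjusted p = 0.775 and 0.806). NAI2, which is needed to form these bodies, read 94.4 units on SA title 52, against 40.6 and 66.7 on silwet titles 40 and 43. These were its 3 highest arrays, with title 40 just above silwet title 39 (39.4 units). Titles 40, 43 and 52 stood above all others for 3.79% of all tested probe sets. PYK10, JAL33 and JAL34 did not have them as their 3 highest arrays. JAL33 read 89.6 units on SA title 52, against 52.7 and 73.0 on silwet titles 40 and 43, with 56.3 on SA titles 50 and 51. PYK10 read 254 units on SA title 52, against 128 and 250.05, with 205 on SA title 50. JAL34 read 193 units on SA title 52, against 94.9 and 189, with its highest value, 220.05, on silwet title 39. In the test of replicate numbers, NAI2 passed among the 4 listed genes other than AT1G54020 (limma adjusted p = 0.0347), where 9.89% of all tested probe sets passed. NAI2 was picked with its values in view, and its 3 highest arrays all carry replicate number 1. This test is therefore not independent of that pick.

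Of 20 listed jasmonate and wound response genes only THI2.1, a thionin, and JMT, which methylates jasmonic acid, are named on the array. Neither passed in a run pair, nor had an unadjusted p under 0.05 there. The largest difference was 0.71 for THI2.1 in the last pair (standard error 0.49, limma adjusted p = 0.775). THI2.1 read 139 units on SA title 52, against 65.0 and 34.1 on silwet titles 40 and 43. With 35.3 units, SA title 53 lay above silwet title 43, so the listed titles did not all stand above the rest. JMT read 12.8 units on SA title 52, against 14.8 and 21.4, within the range of the other arrays. In the test of replicate numbers THI2.1 passed (limma adjusted p = 0.0240) and JMT did not (adjusted p = 0.723).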

How the data were processed

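The authors deposited 1 linear intensity signal per probe set and array, and the submitters' processing notes name MAS5, without a version or settings. Trimmed means lay between 100.008 and 100.01, so arrays had been scaled to one level and shifts shared by all genes are lost. No 2 arrays were identical. Of 22810 probe sets, 64 controls and 5687 with a mean under the 25th percentile were left out, and 17059 were tested.

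Levels were analysed as log2(signal + 16), on which differences of dim probe sets are understated, with limma 3.58.1 in R 4.3.3, a variance trend, Benjamini-Hochberg adjustment over all tested probe sets and a threshold of 0.05. One fit held the 6 runs of 3 arrays. The test was checked on simulated data. Precision is limited by the number of arrays. Plots were made with matplotlib 3.10.9 (Python 3.11.15).

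Names came from the platform's table, updated to TAIR10.1: 13513 probe sets have 1 gene, 503 several, and 8730 are unnamed here. A locus with several probe sets is shown by the brightest. Text beyond the 3 genes names, per list, up to 6 genes that passed in a run pair or else the 2 with the smallest p, and the 5 most correlated genes per chosen gene. Any other gene, such as NAI2 or UGT76B1, was picked with its values in view. Members, lists and run pairs were chosen with earlier results of these data known.

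Arrays of the same replicate number deviated together between treatments (correlations 0.56 to 0.76 over 3 numbers), and in 7 of 9 single pairs within run pairs the correlation exceeded 0.1. Values with the replicate block appear where a call changes. Alternatives were other offsets, scalings, filters, variance models and subsets of arrays. No sequences were used here.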

Additional observations from a re-analysis of the deposited data

Results flagged for a closer look

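The level of AT1G54020 on SA title 52 was 8.96, where the next highest SA array read 6.56. It was the only array far from the others in 10 groups of 9 arrays checked (5 genes in both treatments), and about 1 group in 20 would show one by chance. The array is one the gene was listed for.

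The SA difference in the pair of SA titles 46 to 48 differed from the mean of the later pairs by -2.08 for AT4G01130 and by -1.94 for AT1G29660, both chosen on that pair, so that the difference was not tested for them. It also differed by -1.11 for AT3G48460 and by -1.07 for AT1G29670 in limma's interaction test. In both genes all 3 SA arrays of titles 46 to 48 lay below all 3 silwet arrays of titles 37 to 39. The share of all tested probe sets that separate in this way is not given here. Without replicate 2 or replicate 3 neither passed: the values were -0.88 and -1.16 for AT3G48460 (adjusted p = 0.274 and 0.111) and -0.97 and -0.92 for AT1G29670 (adjusted p = 0.370 and 0.226).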

How the results depend on the processing

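Of 645 values for 44 results under 15 alternatives, those below changed sign or moved. Probe sets called in SA titles 46 to 48 against silwet titles 37 to 39 numbered 517, against 1147 with the replicate block, 1006 without titles 40, 43 and 52, 2262 with array weights, 278 when only those arrays were fitted, and 3 to 809 leaving out each replicate number. Family genes called lower there numbered 4, against 8 with the block, 11 with array weights and 0 to 8 leaving out a number. The AT4G01130 difference was -2.10 at offset 1 and -0.97 at offset 64. For silwet titles 37 to 39 against later silwet titles, 495 calls became 1177 with the block, 1330 with array weights, 225 with the 3′ to 5′ covariate and 44 to 327 leaving out a number, and 5 family genes became 2 with the covariate and 0 to 5. In the first pair minus the later ones 6 family genes became 11 with array weights and 0 to 8. In the second pair 1 probe set was called at offset 1 and 3 with array weights, and over all arrays 1 with no filter. Calls by replicate number were 1687, against 1091 with no filter, 229 without titles 40, 43 and 52 and 192 to 818.

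AT1G54020 changed sign often. Leaving out a replicate number, it ranged from -0.74 to 0.25 in the first pair, -0.67 to 0.77 in the second, -0.71 to 1.59 for the last minus the second, -0.98 to 0.55 between silwet runs, -1.19 to 1.24 between the later SA runs and -1.15 to 0.13 for the first pair minus the later ones. In the second pair it was -0.087 at offset 64, -0.034 with quantile scaling, -0.042 with median centring and -0.022 with the covariate, and in the last -0.016 with array weights. The last minus the second was -0.67 without titles 40, 43 and 52 and -0.18 with weights. Between silwet runs it was 0.56, 0.081 and 0.16 (those titles left out, weights, covariate), and between later SA runs -1.15, -0.78 and -0.13, with -0.35 at offset 1. For AT4G01130 the later SA runs differed by -0.0084 with the covariate, and over all arrays weights gave 0.26, with 0.25 for AT1G29660. The replicate 1 contrast ranged from -0.085 to 0.26 for AT4G01130 and from -0.20 to 0.0068 for AT1G29660 leaving out a number, and was 0.43 for AT1G29660 without titles 40, 43 and 52. The causes were not tested.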
